A study of Mus musculus with 4 samples.

Results

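The miR-181 family was followed here in C2C12 myotubes differentiated with or without guanidinoacetic acid (GAA), a precursor of creatine. Its members were taken by name, as the 4 5p mature miRNAs (miR-181a-5p, miR-181b-5p, miR-181c-5p and miR-181d-5p) and the 3 3p mature miRNAs miR-181a-1-3p, miR-181a-2-3p and miR-181c-3p. Of these 7 members, 6 had a value in each of the 4 samples, among 869 miRNAs with a value in any sample, and miR-181a-2-3p had none in any sample. Small RNA had been sequenced on day 6 of differentiation from 2 samples kept in differentiation medium with horse serum alone (NC-1 and NC-2) and 2 samples kept in the same medium with 20 mM GAA (GAA-1 and GAA-2). C2C12 is a single immortalised mouse myoblast line, for which the labels give 129/Rej as the strain background and myoblast as the tissue source, and it forms multinucleated myotubes once serum is lowered. The groups shared the line, the medium and the day, and differed by GAA alone as far as the labels state. The labels do not say that the 2 samples of a group came from separate cultures, so the spread between them may be technical.

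A miRNA precursor is a hairpin whose 5p and 3p arms can each give a mature miRNA, and the bases near the 5′ end, called the seed, guide a mature miRNA to its targets. miR-181 is known for rising when myoblasts differentiate and for repressing Hox-A11, a homeobox factor that holds back MyoD, and its members are made from paired precursors on separate chromosomes. In most tissues the 5p arms are the abundant strands and the 3p arms are largely degraded.

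The mature sequences are shown because they define which members share a seed and how few bases separate the paralogs whose reads are compared below. They were taken from RefSeq (GRCm38.p6), which held all 7 members, and capitals mark the seed, bases 2 to 8 from the 5′ end.
miR-181a-5p: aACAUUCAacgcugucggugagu
miR-181b-5p: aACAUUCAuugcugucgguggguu
miR-181c-5p: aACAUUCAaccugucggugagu
miR-181d-5p: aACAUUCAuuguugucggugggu
miR-181a-1-3p: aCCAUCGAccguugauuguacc
miR-181a-2-3p: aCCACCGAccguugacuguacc
miR-181c-3p: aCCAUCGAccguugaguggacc
The 4 5p members carried the same seed, ACAUUCA, and among the mature mouse miRNAs of RefSeq 4 had it, all of them miR-181 members. The 3p members miR-181a-1-3p and miR-181c-3p shared a different seed, CCAUCGA, whereas miR-181a-2-3p differed from miR-181a-1-3p within the seed. With positions counted from 1 at the 5′ end, miR-181b-5p differed from miR-181a-5p by A9U, C10U and A21G and was 1 base longer. miR-181d-5p differed from miR-181b-5p by C12U and was 1 base shorter. miR-181c-5p was 1 edit away from miR-181a-5p, being 1 base shorter. The 3p members miR-181a-1-3p and miR-181a-2-3p differed by U5C and U16C, and miR-181a-1-3p and miR-181c-3p by U16G and U19G. The mismatches allowed when reads were assigned are not given in the sources used here, so reads exchanged between such close copies leave the values of single paralogs uncertain.

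In GRCm38 the precursors lie in 3 pairs. Mir181a-1 (chr1:137966455-137966541, plus strand) and Mir181b-1 (chr1:137966639-137966718, plus strand) are 97 bases apart, in an intron of the noncoding gene Gm4258 and opposite an intron of Gm26936, and an exon of the noncoding gene A430106G13Rik covers Mir181b-1 and 11 bases of Mir181a-1. Mir181a-2 (chr2:38852735-38852810, plus strand) and Mir181b-2 (chr2:38853830-38853918, plus strand) are 1019 bases apart, opposite an intron of Nr6a1, which encodes an orphan nuclear receptor. Mir181d (chr8:84178716-84178787, minus strand) and Mir181c (chr8:84178873-84178961, minus strand) are 85 bases apart within an intron of Nanos3, which encodes an RNA-binding protein of germ cells. The mature miR-181a-5p and miR-181b-5p are each encoded on chromosomes 1 and 2, so their reads could not be divided between those pairs, whereas each 3p member belongs to 1 precursor.

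The deposited values were reads per 1000000 mappable reads (RPM) on a log2 scale. The mappable reads numbered 4732359 to 5657704 per sample, and 1 read was worth 0.177 to 0.211 RPM, which made it possible to turn each value back into reads. Of the mappable reads, miRNAs accounted for 33.6% (NC-1) and 43.6% (NC-2) without GAA and for 56.3% (GAA-1) and 50.4% (GAA-2) with it. Each member is therefore given both in RPM and as a share of the miRNA reads of its sample. Over the 371 miRNAs with at least 1 RPM in every sample, the median log2 fold change from NC to GAA stood at 0.49 in RPM and 0.04 as a share of miRNA reads. The 5 muscle markers (miR-1a-3p, miR-133a-3p, miR-133b-3p, miR-206-3p and miR-499-5p) were all found, with summed levels of 5612 and 7083 RPM in NC and 4515 and 4892 RPM in GAA, and each GAA sample lay below each NC sample for 4 of them in RPM and for 5 as a share, orders found in 5.23% and 19.1% of the 497 miRNAs with a value in every sample. The 15 markers of other cell types (blood, liver, neural, endothelial and epithelial) summed to 60.1 and 69.1 RPM in NC and 109 and 76.0 RPM in GAA, with miR-9-5p highest at up to 59.5 RPM, the erythroid miR-451a at no more than 2.03 RPM and the myeloid miR-223-3p at 0 in 3 of 4 samples. The haematopoietic miR-142a-5p was higher in GAA, at 6.09 and 7.18 RPM in NC and 16.9 and 13.4 RPM in GAA (log2 fold change 1.08 in RPM, limma adjusted p = 0.205, and 0.68 as a share, adjusted p = 0.565). Of the other blood markers, miR-144-3p and miR-451a were lower in both GAA samples, from few reads. The log2 fold change was −1.57 in RPM and −2.38 as a share for miR-144-3p (limma adjusted p = 0.254 for each), and −0.73 and −1.38 for miR-451a. For miR-142a-3p it was 0.50 and 0.26, and for miR-223-3p 0.12 and 0.20. The liver marker miR-122-5p stood at 0 RPM in both NC samples and at 3.05 and 0.354 RPM in GAA-1 and GAA-2. Its log2 fold change was 1.23 in RPM (limma adjusted p = 0.350) and 1.73 as a share (adjusted p = 0.465). Of the 15 markers, 10 had a log2 fold change above 0 and 5 below 0 in RPM, against 6 and 9 as a share. The part of these markers of other cell types in the results on miR-181 was not tested.

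miR-181a-5p was the leading member and among the most abundant miRNAs of these myotubes. Without GAA it stood at 7820 RPM (NC-1) and 13196 RPM (NC-2), with GAA at 9453 RPM (GAA-1) and 8451 RPM (GAA-2), and it ranked between 7 and 9 among the miRNAs of each sample. The GAA samples lay between the NC samples, and NC-2 was the highest of the 4. These values came from 38510 reads in NC-1 and 47816 reads in GAA-2, and from 62448.5 and 52619.5 in NC-2 and GAA-1, where the number was not whole, so that not every read had been counted as 1.

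miR-181c-5p came next, with 2138 and 2899 RPM in NC-1 and NC-2 and 2642 and 2467 RPM in GAA-1 and GAA-2. Again the GAA samples lay within the range of NC. miR-181b-5p had 465 and 744 RPM in NC and 814 and 683 RPM in GAA, and miR-181d-5p had 240.0 and 343 RPM in NC and 435 and 332 RPM in GAA. In both of these the groups overlapped, since a GAA sample lay below NC-2.

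The 3p members were far less abundant than the 5p members of their precursors. miR-181a-1-3p had 106 and 135 RPM in NC and 190.2 and 152 RPM in GAA, from 521 to 1059 reads. miR-181c-3p had 105 and 131 RPM in NC and 163 and 160.3 RPM in GAA, from 517 to 907 reads. For both, each GAA sample lay above each NC sample. miR-181a-2-3p, the 3p arm of the chromosome 2 precursor of miR-181a, was listed in no sample. Taken as 0 reads, this allowed at most 3 reads, or 0.530 to 0.634 RPM depending on the sample, while its counterpart from chromosome 1 had at least 521 reads in every sample. A level of miR-181a-2-3p under this limit could have gone without a read at this depth.

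**Figure D1:**
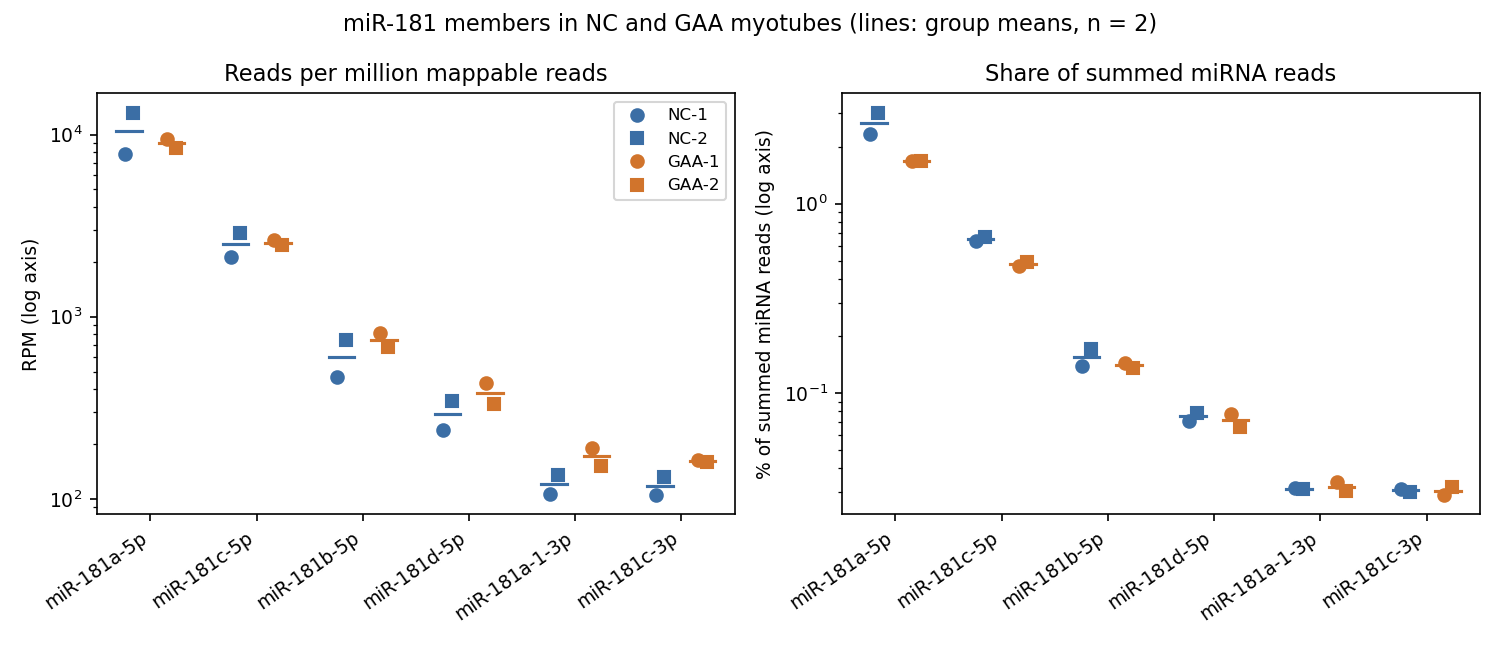
Level of the 6 detected miR-181 members in each sample, in RPM (left) and as a percentage of the summed miRNA reads (right), both on log axes. Blue marks NC, orange GAA, circles replicate 1, squares replicate 2 and lines the means of 2 samples. Members are ordered by level, and the GAA samples of miR-181a-5p and miR-181c-5p lie within the NC range in RPM but below both NC samples as a share.

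The order of the levels was the same in all 4 samples down to the 3p members. In RPM, miR-181a-5p exceeded miR-181c-5p by 3.80-fold on average, miR-181c-5p exceeded miR-181b-5p by 3.84-fold, miR-181b-5p exceeded miR-181d-5p by 2.01-fold and miR-181d-5p exceeded miR-181a-1-3p by 2.32-fold. The last neighbours, miR-181a-1-3p and miR-181c-3p, did not differ beyond their spread, with a mean ratio of 1.04 and miR-181a-1-3p the higher in 3 of 4 samples. The members are 22 to 24 bases long, so no correction for length was made.

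Replicates were compared before averaging. Between NC-1 and NC-2 the log2 RPM of every detected member was higher in NC-2, by 0.32 for miR-181c-3p up to 0.75 for miR-181a-5p. Between GAA-1 and GAA-2 the log2 difference (GAA-2 minus GAA-1) ran from −0.02 for miR-181c-3p to −0.39 for miR-181d-5p. For miR-181a-5p the chi-square of the reads against equal levels was 6673 in NC and 314 in GAA on 1 degree of freedom, far more than the counting of reads alone gives, and only miR-181c-3p in GAA (0.0893) lay within counting error. The sample was therefore the unit of every comparison.

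In RPM, no member passed the test between GAA and NC, and the most abundant ones were lowest relative to the other miRNAs. miR-181a-5p averaged 10508 ± 3802 RPM in NC against 8952 ± 708 RPM in GAA (SD, n = 2 each). Its log2 fold change on the log2(RPM + 1) scale was −0.18 (standard error 0.32, 95% interval −1.07 to 0.70, limma adjusted p = 0.714), and it turned to 0.19 without NC-2. miR-181c-5p averaged 2518 ± 539 RPM in NC and 2554 ± 124 RPM in GAA (SD, n = 2 each), a log2 fold change of 0.04 (standard error 0.22, limma adjusted p = 0.943), which became −0.44 as a share of miRNA reads and −0.18 in RPM without NC-1. Both lay below the median shift of all miRNAs in RPM, miR-181a-5p by a log2 difference of −0.68 and miR-181c-5p by −0.46. The other 4 members lay closer to that median, between −0.15 for miR-181b-5p and 0.01 for miR-181a-1-3p.

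The fold changes of the less abundant members were positive in RPM, but their sign depended on the divisor. The log2 fold change was 0.34 (standard error 0.29, limma adjusted p = 0.524) for miR-181b-5p and 0.40 (standard error 0.27, adjusted p = 0.500) for miR-181d-5p in RPM, against −0.13 and −0.07 as a share of miRNA reads. With each sample left out, the RPM values ran from 0.0034 (without NC-1) to 0.68 (without NC-2) for miR-181b-5p and from 0.15 to 0.66, without the same samples, for miR-181d-5p. For miR-181c-3p it was 0.46 (standard error 0.18, limma adjusted p = 0.291) in RPM and −0.02 as a share, and for miR-181a-1-3p 0.50 (standard error 0.22, adjusted p = 0.319) in RPM, 0.03 as a share and −0.02 with median-of-ratios factors. Without NC-1 the RPM values were 0.30 and 0.33, respectively. Although each GAA sample of miR-181a-1-3p and of miR-181c-3p lay above each NC sample, 56.5% of those 497 miRNAs did so in RPM, and 2 of 6 members is a smaller share. None of the members had both GAA samples below both NC samples in RPM, an order found in 5.23% of those miRNAs.

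The study's methods give thresholds of a false discovery rate under 0.01 and a log2 fold change beyond 1 in either direction. The study applied them to read counts with the count model edgeR, and reported differentially expressed miRNAs, miR-133a-3p and miR-1a-3p among them. At the same thresholds but with a different test, limma called 0 of 869 miRNAs in RPM (0%). An unadjusted p under 0.05 was found for 152, none of them a miR-181 member. The median log2 fold change of the 6 members was 0.37. It was 0.22 over all 869 miRNAs tested, many of them with few reads, whose fold changes this scale understates. Over the 497 miRNAs with a value in every sample it was 0.42, and over the 371 with at least 1 RPM in every sample 0.49. The median of the members thus lay below that of miRNAs with comparable detection. This did not hold for each member, since miR-181a-1-3p, at 0.50, lay above both medians and miR-181c-3p, at 0.46, above 0.42.

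**Figure D2:**
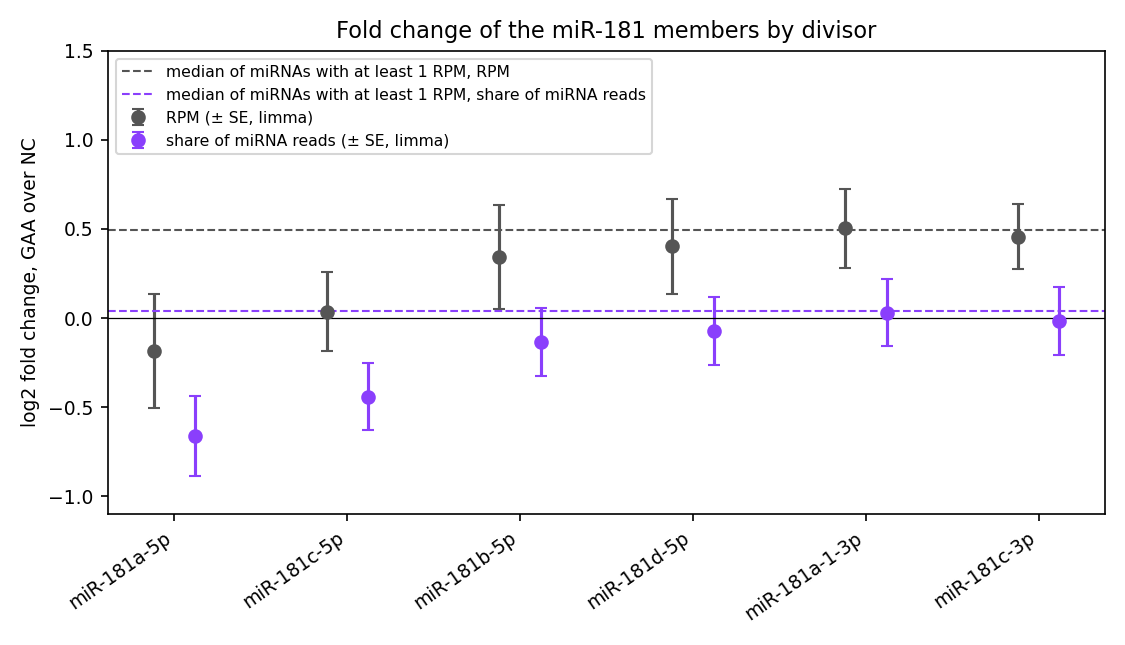
log2 fold change of GAA over NC for each detected miR-181 member, fitted with limma on RPM (grey) and on the share of miRNA reads (purple), with bars of 1 standard error (n = 2 per group). Dashed lines mark the median of the 371 miRNAs with at least 1 RPM in every sample, 0.49 in RPM and 0.04 as a share, and miR-181a-5p and miR-181c-5p lie below the line of their colour by more than their bars.

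As a share of the miRNA reads, miR-181a-5p and miR-181c-5p were the members set apart by group, both with lower values in GAA. Of the miRNA reads, 2.33% in NC-1 were miR-181a-5p (95% Wilson interval 2.31% to 2.35%) and 3.02% in NC-2 (3.00% to 3.05%), whereas GAA-1 and GAA-2 each gave it 1.68% (1.66% to 1.69%). The GAA samples were both lower than either NC sample and almost equal, while the NC samples lay further apart than the intervals, which cover counting error only. The mean was 2.68% ± 0.491 in NC against 1.68% ± 0.00113 in GAA (SD, n = 2 each), a log2 fold change of −0.66 (standard error 0.23, 95% interval −1.17 to −0.15, limma adjusted p = 0.465).

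miR-181c-5p accounted for 0.637% and 0.664% in NC-1 and NC-2 and 0.469% and 0.490% in GAA-1 and GAA-2, with Wilson intervals from 0.625% to 0.649% in NC-1 and from 0.462% to 0.477% in GAA-1. The gap between its groups was several times the difference between replicates, with means of 0.650% ± 0.0196 in NC and 0.479% ± 0.0144 in GAA (SD, n = 2 each). Its log2 fold change was −0.44 (standard error 0.19, 95% interval −0.86 to −0.02, limma adjusted p = 0.575). Neither difference passed the threshold after adjustment, although the unadjusted limma p was 0.0160 for miR-181a-5p and 0.0427 for miR-181c-5p. An order of this kind, with each GAA sample below each NC sample, was found in 19.1% of the 497 miRNAs, and 2 of 6 members had it.

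The other 4 members had overlapping shares in the groups. miR-181b-5p took 0.138% and 0.170% in NC and 0.145% and 0.136% in GAA, with an adjusted p of 0.781 in limma. miR-181d-5p took 0.0715% and 0.0787% in NC and 0.0772% and 0.0659% in GAA. These values straddled each other, so that neither group was the higher. The 3p members were the steadiest, at 0.0315% and 0.0310% in NC against 0.0338% and 0.0302% in GAA for miR-181a-1-3p, and at 0.0313% and 0.0301% against 0.0289% and 0.0318% for miR-181c-3p. The widest Wilson interval among the 3p values, 0.0289% to 0.0343% for miR-181a-1-3p in NC-1, covered all 4 values of that member. None of the 6 members had both GAA samples above both NC samples, against 21.9% of the 497 miRNAs.

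Limma called 1 of 869 miRNAs on the share of miRNA reads (0.115%), the slow-muscle miRNA miR-208b-3p and no miR-181 member, and 0 with any 1 sample left out, and 70 had an unadjusted p under 0.05, 2 of them members. The median log2 fold change of the members was −0.10, beside 0.08 over all miRNAs tested and 0.04 over the 371 with at least 1 RPM in every sample. A share of miRNA reads is the RPM divided by the part of mappable reads that fell on miRNAs, which was higher in both GAA samples. The RPM and the share results therefore differ by that part alone, apart from the added 1 at low values. Why that part was higher in GAA was not tested.

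The summed level of the family followed miR-181a-5p. The members together held 10873 and 17449 RPM in NC-1 and NC-2 and 13697 and 12246 RPM in GAA-1 and GAA-2, with the GAA samples again between the NC samples. As a share of miRNA reads they held 3.24% and 4.0% in NC and 2.43% in each GAA sample, or 3.62% ± 0.538 and 2.43% ± 0.00159 (SD, n = 2 each). The log2 ratio of the means was −0.13 in RPM and −0.57 as a share. The RPM value rested on NC-2, without which it was 0.25. The 3p members alone summed to 211 and 267 RPM in NC and 353 and 312 RPM in GAA, or 0.0628% and 0.0611% of the miRNA reads in NC and 0.0627% and 0.0620% in GAA, so that their share differed little between the groups.

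The make-up of the family does not depend on the divisor, because it compares reads within a sample. miR-181a-5p made up 71.9% and 75.6% of the members' reads in NC-1 and NC-2 and 69.0% in each GAA sample, with Wilson intervals no wider than 0.381 points on either side. Its mean was 73.8% ± 2.62 in NC and 69.0% ± 0.00104 in GAA (SD, n = 2 each), a difference of −4.76 points that lay within −6.61 and −2.90 points when each sample was left out in turn. miR-181b-5p made up 4.28% and 4.26% in NC and 5.95% and 5.58% in GAA, and miR-181d-5p 2.21% and 1.97% in NC and 3.17% and 2.71% in GAA. For both of these less abundant 5p members each GAA sample lay above each NC sample. The shares of a sample add up to its whole, so a lower share of miR-181a-5p goes with higher shares of the rest. In RPM and as a share of miRNA reads, miR-181b-5p and miR-181d-5p overlapped between the groups. How often shares within other families separate the groups was not tested. miR-181c-5p overlapped, at 19.7% and 16.6% in NC and 19.3% and 20.1% in GAA. The 3p members made up 0.752% to 0.973% each in NC and 1.19% to 1.39% each in GAA. With 2 samples against 2, an exact two-sided permutation test cannot give a p below 0.33, which is the value for each member here whose groups did not overlap, miR-181a-5p included.

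**Figure D3:**
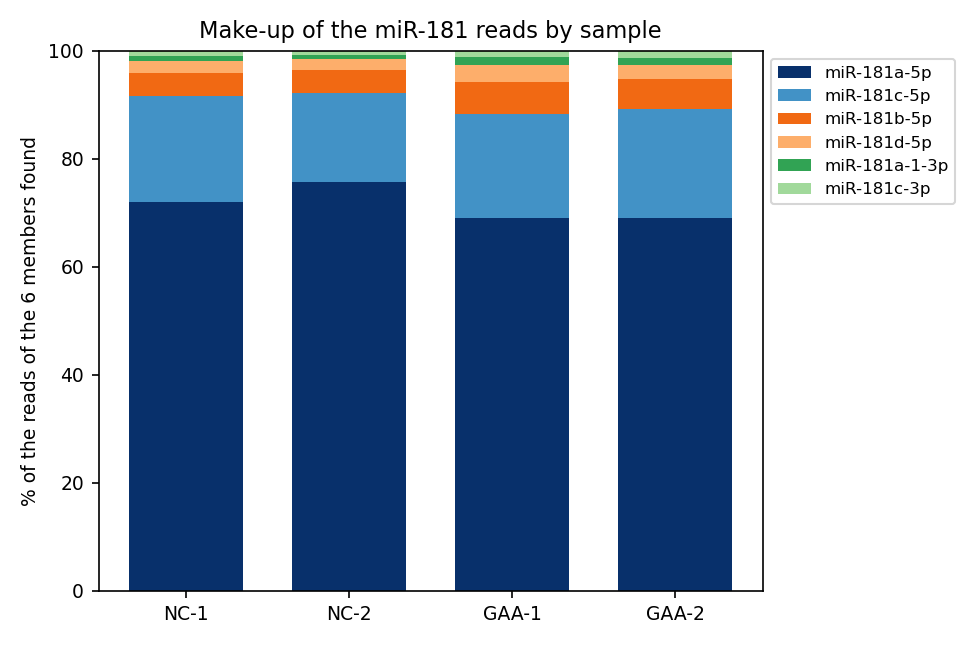
Percentage of the reads of the 6 detected miR-181 members held by each member, per sample, as stacked bars that fill the axis. miR-181a-5p makes up 71.9% and 75.6% in the NC samples and 69.0% in both GAA samples, and miR-181b-5p and miR-181d-5p take more in GAA.

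The paralogs were then compared directly, as ratios of reads chosen after their values had been seen. miR-181a-5p had 16.8 and 17.7 times the reads of miR-181b-5p in NC-1 and NC-2, and 11.6 and 12.4 times in GAA-1 and GAA-2. The means were 17.3 ± 0.652 in NC and 12 ± 0.544 in GAA (SD, n = 2 each), a log2 difference of −0.53 that stayed between −0.57 and −0.48 with each sample left out. These 2 members are made from precursors that lie side by side on both chromosomes 1 and 2. The chromosome 8 pair gave a ratio of miR-181c-5p to miR-181d-5p of 8.91 and 8.44 in NC and 6.08 and 7.42 in GAA, with means of 8.67 ± 0.327 and 6.75 ± 0.950 (SD, n = 2 each) and a log2 difference of −0.37. Without GAA-1 the latter difference was −0.22. Both ratios were lower in both GAA samples, but the first pools the precursors of chromosomes 1 and 2, so that only the chromosome 8 ratio belongs to 1 pair of precursors. The ratio of miR-181a-5p to miR-181c-5p, 3.66 and 4.55 in NC against 3.58 and 3.43 in GAA, was separated by a narrow margin.

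By contrast, the ratio of miR-181b-5p to miR-181d-5p overlapped, at 1.94 and 2.17 in NC and 1.87 and 2.05 in GAA, and so did that of miR-181a-1-3p to miR-181c-3p, at 1.01 and 1.03 in NC and 1.17 and 0.949 in GAA. The exact permutation p was 0.33 for each of the 3 ratios whose groups did not overlap, the smallest that 2 samples against 2 allow. Such an order was common, since 46.7% of the 52003 ratios between any 2 miRNAs that had at least 10 reads in each sample had no overlap between the groups.

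The arms of a precursor were compared to ask whether GAA went with a different balance of strands. miR-181a-5p had 73.9 and 97.4 times the reads of miR-181a-1-3p in NC-1 and NC-2, and 49.7 and 55.5 times in GAA-1 and GAA-2. The numerator includes miR-181a-5p reads from the chromosome 2 precursor, so this is an upper limit for the precursor on chromosome 1. The means were 85.7 ± 16.6 in NC and 52.6 ± 4.13 in GAA (SD, n = 2 each), a log2 difference of −0.69.

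miR-181c-5p and miR-181c-3p come from 1 precursor. Their ratio was 20.4 and 22.1 in NC and 16.3 and 15.4 in GAA, with means of 21.2 ± 1.23 and 15.8 ± 0.610 (SD, n = 2 each) and a log2 difference of −0.42. The 5p arm remained dominant in every sample, and both GAA samples had the lower ratio for both precursors. Exact permutation gave p = 0.33 for each. Among the 86 precursors with at least 10 reads of each arm in every sample, 23.3% had the ratio of the main arm to the other arm lower in both GAA samples.

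A limma fit over the log2 arm ratios of those 86 precursors, added after the data had been seen, called 0 (0%) at a false discovery rate under 0.01, with 6 at an unadjusted p under 0.05. In it both miR-181 ratios had the same standard error, 0.37, because the fit pooled the variance over the 86 precursors. That error does not measure the spread of either ratio. The SDs of the log2 ratio in NC and GAA were 0.282 and 0.114 for miR-181a and 0.0833 and 0.0556 for miR-181c. With the pooled error, the 95% interval was −1.42 to 0.04 for the miR-181a ratio (limma adjusted p = 0.557). It was −1.16 to 0.31 for the miR-181c ratio (adjusted p = 0.945). Over all 86 precursors the median difference was −0.05.

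**Figure D4:**
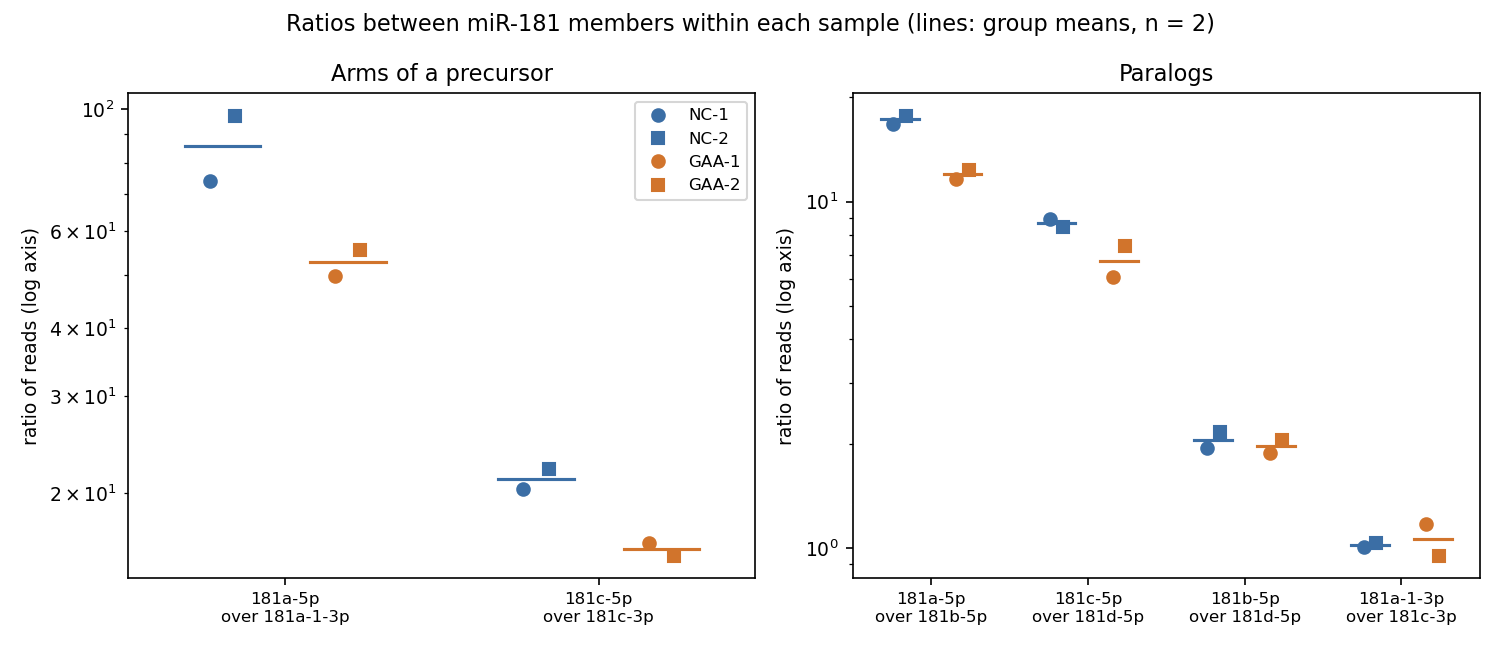
Ratios of reads between miR-181 members within each sample, on log axes, for the arms of a precursor (left) and for paralogs (right), with NC in blue, GAA in orange and lines at the means of 2 samples. Both arm ratios and the ratios of miR-181a-5p to miR-181b-5p and of miR-181c-5p to miR-181d-5p are lower in both GAA samples, whereas the other 2 ratios overlap.

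The 3p arms, each made from 1 precursor, gave the only view that separates the pairs of chromosomes 1 and 2. On chromosome 8, miR-181c-5p and miR-181d-5p are also each made from 1 precursor. On chromosome 1, miR-181a-1-3p had 521 to 1059 reads per sample, and miR-181b-1-3p, which is no member of the set above, had 35 and 36 reads without GAA and 63 and 65 with it, a log2 fold change of 0.57 in RPM (standard error 0.18, limma adjusted p = 0.272) and of 0.15 as a share of miRNA reads. On chromosome 2, miR-181a-2-3p had no value and miR-181b-2-3p had 1 or 2 reads. On chromosome 8, miR-181c-3p had 517 to 907 reads and miR-181d-3p at most 2. The reads of 3p arms were thus found mostly at chromosomes 1 and 8, although 3p reads count only the strands that were kept and do not measure how much of each precursor was made.

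Among the other miRNAs, the pattern over the 4 samples most like that of miR-181a-5p was that of miR-10b-5p, followed by miR-186-3p and miR-503-5p, at Euclidean distances of 0.16, 0.18 and 0.20 between log2 shares of miRNA reads centred on their own mean. Of 322 miRNAs compared over these 4 samples, miR-181c-5p was the 10th nearest to miR-181a-5p at 0.32 and miR-181b-5p the 41st at 0.53. The nearest to miR-181b-5p were miR-3068-3p, miR-324-5p and miR-361-3p, each at 0.11, and miR-181d-5p was the 5th at 0.16. miR-181c-5p lay almost midway, at 0.37 from miR-181b-5p against 0.32 from miR-181a-5p.

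The other miRNAs known for promoting myoblast differentiation were set beside the family. All 15 of the list were found, and limma called 0 of them on either scale, with 5 at an unadjusted p under 0.05 in RPM and 3 as a share. Of the 371 miRNAs with at least 1 RPM in every sample, 111 had such a p in RPM and 42 as a share. In RPM, both GAA samples lay above both NC samples for 8 and below them for 2, with a median log2 fold change of 0.34, and as a share for 1 and 7, with a median of −0.13. Over the 497 miRNAs with a value in every sample, 56.5% lay above and 5.23% below in RPM, and 21.9% and 19.1% as a share. The muscle-specific miR-206-3p had a log2 fold change of −0.46 in RPM and −0.94 as a share, and miR-503-5p, which targets the cell-cycle phosphatase Cdc25a, −0.07 and −0.50. miR-29a-3p, a repressor of collagen genes, lay the other way at 0.71 and 0.23.

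All 7 miRNAs known for keeping myoblasts proliferating or holding back differentiation were also found, and limma called 0 of them on either scale. An unadjusted p under 0.05 was found for 5 in RPM and 2 as a share, beside the same 111 and 42 of 371 miRNAs. Both GAA samples lay above both NC samples for 5 in RPM and for 2 as a share, and below them for 1 on each scale. The median log2 fold changes were 0.56 and 0.09. Over the same 497 miRNAs, 56.5% lay above and 5.23% below in RPM, and 21.9% and 19.1% as a share. The log2 fold change was 1.22 in RPM and 0.75 as a share for miR-222-3p, and 0.87 and 0.39 for miR-221-3p, both of which repress the cell-cycle inhibitor p27, and −0.55 and −1.02 for miR-133a-3p.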

How the data were processed

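Small RNA libraries of 4 samples were grouped by their titles. According to the study's methods, the authors mapped clean reads to GRCm38 with miRDeep2, counted known miRNAs of miRBase and divided by mappable reads. The deposited values are log2(RPM + 1). The base of 2 and the added 1 follow from the numbers themselves, which fell on whole multiples of 1 read (tolerance 0.05 of a read) for all but 49 miRNAs. A miRNA without a row was taken as 0 reads.

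The groups were contrasted by limma 3.58.1 (R 4.3.3, mean-variance trend, no covariate) on log2(RPM + 1) over all 869 miRNAs, with no filter, and again after division by miRNA reads. Benjamini-Hochberg adjustment was used throughout. A fold change on this scale understates that of miRNAs with few reads. Single values were compared by exact permutation. The fit was tested on simulated data whose changes were far larger than those of any member. That test cannot show whether changes of the members' size would be found. The deposited values are logs and no count model was fitted, although most values could be turned back into whole reads.

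The members and lists were chosen with earlier results of these data known. Named are the members, other miR-181 rows, the muscle lists and the 3 nearest patterns of miR-181a-5p and miR-181b-5p among those with at least 10 reads in each sample. Precursor positions came from GENCODE M21 and RefSeq. Alternatives were other divisors, a pseudocount of 0.1, filters on low values, no trend, a replicate block, an FDR of 0.05 and each sample left out. Intervals on shares are 95% Wilson intervals, and these and the limit of 3 reads cover counting error only.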

Additional observations from a re-analysis of the deposited data

How the results depend on the processing

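No miR-181 member passed both thresholds, on the false discovery rate and on the fold change, in any of the 78 combinations of member and setting in RPM or the 60 as a share of miRNA reads. In RPM the number of miRNAs called was 1 in place of 0 with each of 3 divisors (miRNA reads, miRNA reads without the 5 most abundant, and median-of-ratios factors) and 0 with each sample left out. With these divisors, in that order, the log2 fold change turned to −0.13, −0.048 and −0.19 for miR-181b-5p and to −0.44, −0.35 and −0.49 for miR-181c-5p. With miRNA reads and median-of-ratios factors it turned to −0.072 and −0.13 for miR-181d-5p and to −0.016 and −0.070 for miR-181c-3p, and with median-of-ratios factors alone to −0.023 for miR-181a-1-3p. As a share of miRNA reads, the number called was 0 in place of 1 with a pseudocount of 0.1, with at least 10 reads in every sample, without a trend, and with each sample left out (0 to 0). Samples of the same number did not deviate together (correlation −0.15 over 323 miRNAs), and with the replicate number as a block limma called 0 in RPM and 6 as a share, none a miR-181 member. The crossed pairing, added after the data had been seen, also called 0 and 6, and there the share of miR-181a-5p passed the limit on the false discovery rate (limma adjusted p = 0.0069, against 0.185 to 0.664 under its other alternatives) but not that on the fold change. The cause of these changes was not tested. With each sample left out, the fold change in RPM ran from −0.56 to 0.19 for miR-181a-5p (positive without NC-2) and from −0.18 to 0.26 for miR-181c-5p (negative without NC-1 or GAA-1). As a share it ran from −0.28 to 0.016 for miR-181b-5p (positive without NC-2), −0.19 to 0.042 for miR-181d-5p (positive without GAA-2), −0.050 to 0.11 for miR-181a-1-3p (negative without GAA-1) and −0.086 to 0.053 for miR-181c-3p (positive without NC-1 or GAA-1), and from −0.85 to −0.47 for miR-181a-5p and −0.47 to −0.41 for miR-181c-5p. Of the other values, 180 kept their direction and side of the threshold or moved by less than the spread, but many of them could not do otherwise. Filters, blocks and the fit without a trend leave the fold change of a member unchanged, and none was beyond 1. Leaving out 1 of 2 samples always moves a group mean by less than the SD. The summed level in RPM is thus counted among the 180, although it turned from −0.13 to 0.25 without NC-2. The depth of 1653803 to 3134241 miRNA reads limits only the rarest 3p arms, and the 2 samples per group limit all comparisons.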
